A study of Mus musculus with 13 samples.

Results

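Hoxb13, the homeobox gene that marks the most distal colon and rectum, was low in 2 of the 9 colorectal tumors of this series, at background in 1 of them, and strongly expressed in the other 7. The tumors were chosen by that level alone. A tumor was called Hoxb13-low where the log2 signal of the Hoxb13 probe lay under the 75th percentile of its array and Hoxb13-high where it did not, which gave 2 Hoxb13-low and 7 Hoxb13-high tumors out of 13 arrays in all. Every level below is on this scale, a log2 difference from the 75th percentile of the array, and every difference is Hoxb13-low minus Hoxb13-high.

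All 13 samples came from CDX2P-NLS Cre;Apc+/loxP mice, in which a Cre recombinase driven by the Cdx2 promoter deletes 1 Apc allele in the cells where that promoter is active, a model of spontaneous colorectal tumors. Starting at 8 weeks of age the mice were injected 24 times, 3 times a week, through the tail vein, either with a negative control microRNA or with a combination of 25 µg each of miR-369-3p, miR-369-5p, the miR-302 members a to d, and miR-200c. Both were carried by super carbonate apatite with albumin. Colorectal tissue was then separated into tumor and normal tissue and measured on a 1-colour Agilent mouse array, 1 array per sample. Both Hoxb13-low tumors were tumors of control mice (replicates 1 and 5). The Hoxb13-high class held the other 5 control tumors (replicates 2, 3, 4, 6 and 7) and both tumors of microRNA-treated mice. The 4 normal arrays, 2 from each group of mice, served for comparison only. The labels name the negative control for the control arrays without a schedule of their own, so the same schedule was assumed. No label says which mouse or which stretch of colon gave a sample, and the p-values therefore cover no more than the spread among these samples.

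Hox genes encode transcription factors that lie in clusters and are switched on in an order along the body axis that follows their order on the chromosome. Genes of low paralog groups are active further forward, and those of the last groups, including Hoxa13, Hoxb13 and Hoxd13, at the hind end, where they pattern the hindgut. The adult colon keeps a part of this code: its proximal and distal segments differ in Hox genes, in transporters and in enzymes that handle bile acids and foreign compounds.

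The Hoxb13 level was -1.57 in control tumor 1 and -4.53 in control tumor 5, where it was not well above background. In the 7 Hoxb13-high tumors it ran from 6.17 to 6.63, with a median of 6.40. The tumor just under the threshold of 0 was therefore control tumor 1 and the tumor just above it was microRNA tumor 1 at 6.17, with a gap of 7.74 between them. Hoxb13 chose the classes, so these values are a description. Its probe lies on chromosome 11 from 96057854 to 96057913 (mm9, as are all probe positions here).

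The arrays of both classes were of like signal quality. The 75th percentile of the processed signal was 415 and 654 in the Hoxb13-low tumors and ran from 431 to 740 in the Hoxb13-high tumors. Between 51.3% and 56.1% of probes were well above background in the former and between 53.7% and 57.0% in the latter. Both Hoxb13-low tumors were hybridized on slide 1 together with 5 Hoxb13-high tumors, and slide 2 held only Hoxb13-high tumors, so a difference could also be computed within slide 1. The intestinal markers Cdx2 and Muc2 were well above background on all 13 arrays.

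Of 24470 genes tested, 453 (1.85%) passed an adjusted p under 0.05, with 275 (1.12%) higher and 178 (0.727%) lower in Hoxb13-low tumors. In all 453 the classes did not overlap, against 4149 (17%) of all genes tested, of which 9.05% had both Hoxb13-low tumors above and 7.9% below the other 7. Since the classes were drawn from Hoxb13 on these same arrays, the limma adjusted p-values here describe how far the classes lay apart relative to the spread of these tumors and are no independent test. The count rested on both Hoxb13-low tumors: 99 genes were called without control tumor 1 and 133 without control tumor 5, where the remaining tumor was assumed to vary like the others. Of the 275 higher calls, 39 were not well above background in any Hoxb13-high tumor. Such genes entered the test through the Hoxb13-low tumors alone and so had to differ, and 39 of the 46 tested were called; those named below are given as bounds, with no p for the difference between the classes. Of the 178 lower calls, 51 were not well above background in either Hoxb13-low tumor, as was the case for 1660 of all 24470 genes tested. These entered the test through the Hoxb13-high tumors alone. Those named below are given as bounds as well, and a call of one is no test of its difference. A log2 difference of at least 4 was found for 47 of the genes called higher and 32 of those called lower.

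**Figure D1:**
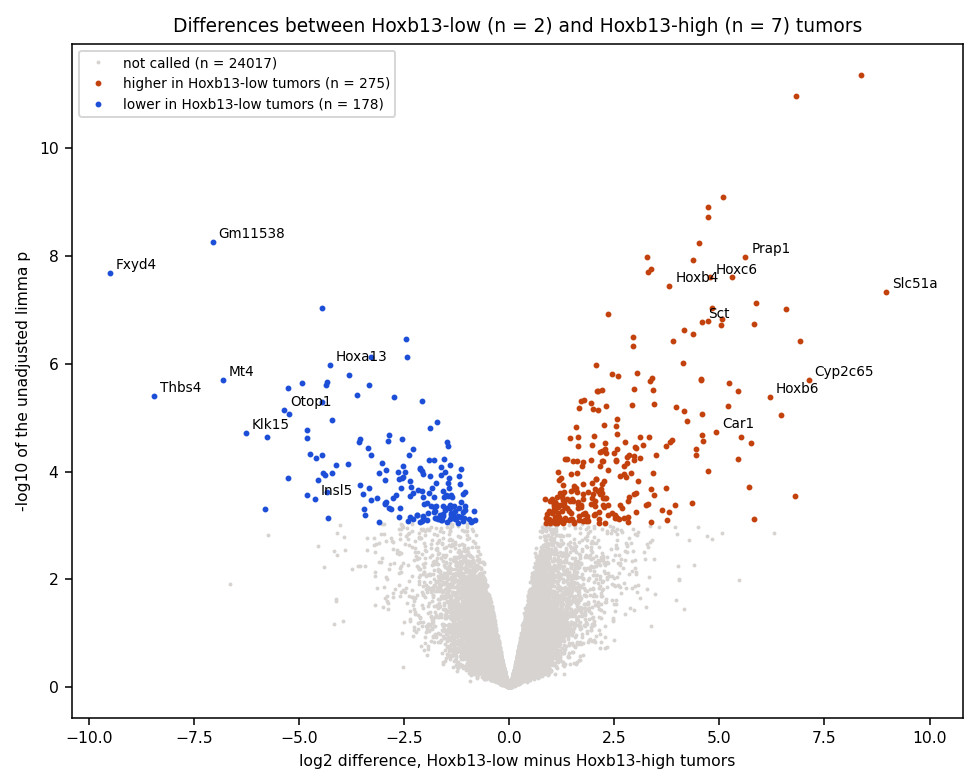
Log2 difference between Hoxb13-low (n = 2) and Hoxb13-high (n = 7) tumors (horizontal axis) against -log10 of the unadjusted limma p (vertical axis), 1 point per gene. Orange points are the 275 genes called higher and blue points the 178 called lower in Hoxb13-low tumors, with Slc51a and Fxyd4 at the far ends.

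The clearest shared pattern was in the Hox genes themselves. In Hoxb13-low tumors, 10 of 18 measured genes of paralog groups 1 to 8 were higher and 1 was lower, with a median log2 difference of 3.09 against 0.02 over all genes. That median was 1.32 with normexp background correction, and 2 of the 10, Hoxc6 and Hoxd3, entered the test through the Hoxb13-low tumors alone, which leaves 8. Of the 11 measured genes of groups 9 to 13 other than Hoxb13, none was higher and 1, Hoxa13, was lower (median -0.70). Without control tumor 1 the median was 3.19 for groups 1 to 8 and 0.28 for groups 9 to 13. Without control tumor 5 the medians were 2.99 and -1.20, so the sign of the latter median rested on control tumor 1. Fewer genes of groups 1 to 8 were called each time, with Hoxc6 and Hoxd3 still among them.

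Hoxa13 (NM_008264, chromosome 6 from 52208980 to 52209039), the group member that acts with Hoxd13 in hindgut patterning, was at -4.76 in control tumor 1 and -3.73 in control tumor 5. It ran from -0.86 to 0.76 in the Hoxb13-high tumors, with a median of 0.08. The classes did not overlap, and the log2 difference was -4.28 (SE 0.40, limma adjusted p = 0.000654). Hoxd13 divided the tumors less cleanly. It was at background in both Hoxb13-low tumors (-6.40 and -6.69), but among the Hoxb13-high tumors it was also low in control tumor 4 (-6.23) and microRNA tumor 2 (-3.10), with the other 5 between 1.43 and 3.12. Its log2 difference of -6.64 (SE 2.16) did not pass (limma adjusted p = 0.182). Hoxa10 (-1.32, adjusted p = 0.379), Hoxb9 (0.83, adjusted p = 0.395) and Hoxd9 (3.03, adjusted p = 0.216) were not called by limma either. Of the other 2 measured genes of group 13, then, 1 passed the test, and the tumors are called here by their Hoxb13 level, not by a position in the colon.

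Within the HoxB cluster every measured gene from Hoxb3 to Hoxb8 was higher in Hoxb13-low tumors, while Hoxb2 (1.62, limma adjusted p = 0.178) and Hoxb9 at the ends of that block did not pass. Hoxb4 (NM_010459) was at 1.72 and 1.79 in the 2 Hoxb13-low tumors and between -2.41 and -1.66 in the others, a difference of 3.81 (SE 0.25, limma adjusted p = 5.15e-05). Hoxb6 (NM_008269) was at 2.57 and 3.31, against -4.17 to -1.19 with a median of -3.25, the largest difference among the HoxB genes of low groups at 6.19 (SE 0.67, limma adjusted p = 0.00156). The classes did not overlap for either gene. Hoxb8 (NM_010461) was at 2.82 and 2.46 against -4.32 to -1.62, a difference of 5.45 (limma adjusted p = 0.00128). Hoxb3, Hoxb5 and Hoxb7 differed by 2.91, 5.21 and 5.45, and Hoxb7 lost its call without either Hoxb13-low tumor (adjusted p = 0.135 and 0.117). The HoxA cluster did not follow: Hoxa2 to Hoxa7 differed by -0.94 to 0.87 with no call.

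In the HoxC and HoxD clusters the called genes were again of low paralog groups. Hoxc6 (NM_010465, chromosome 15 from 102842243 to 102842302) was at -2.46 and -1.70 in the Hoxb13-low tumors and not well above background in any of the other 7, so it was at least 6.48-fold higher. Hoxd3 was at least 2.71-fold higher on the same basis. These bounds set the mean of the brighter class against the dimmest probes still well above background. Hoxd4 and Hoxd8 differed by 4.58 and 3.45 (limma adjusted p = 0.0053 and 0.00187). In normal tissue Hoxb6 ran from 1.14 to 3.08 and Hoxc6 from -2.58 to -1.88, so for these 2 genes the Hoxb13-high tumors stood below all 4 normal arrays and the Hoxb13-low tumors did not.

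Since a group of neighbouring Hox genes moved together, the 250 bases before the RefSeq start of each gene (GRCm38.p6) were searched on both strands for the sequences ccaataaa and ctcgtaaa, which the HOXB13 protein is known to bind. A window was found for 177 of 226 genes called higher that have a symbol and for 125 of 154 called lower. Of these, 2 (1.13%) and 3 (2.40%) held either sequence, against 1.06% of all tested genes with a window and 1.13% of all windows. The 2 called higher were Hoxb8 and Tmem25, and those called lower were Cadps, Nek5 and Gm7932. The stretch around the match is shown for Hoxb8, the only called Hox gene with one, and for Tmem25 and Cadps, which lie on either side of the comparison; capitals mark the match.
Hoxb8 (chr11:96281702-96281761, plus strand): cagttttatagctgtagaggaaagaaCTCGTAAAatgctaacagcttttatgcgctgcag
Tmem25 (chr9:44799389-44799448, minus strand): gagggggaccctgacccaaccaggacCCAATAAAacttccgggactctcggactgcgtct
Cadps (chr14:12823124-12823183, minus strand): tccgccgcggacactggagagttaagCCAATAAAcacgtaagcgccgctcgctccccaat
The match in Hoxb8 begins 177 bases before the start, that in Tmem25 175 bases before it, and that in Cadps 78 bases before it. The sequence ctcgtaaa was rare, in 0.110% of all windows. These are matches of letters only, and no binding was measured. Tmem25, which encodes a membrane protein, was higher by 1.46 (limma adjusted p = 0.0403), and Cadps, a protein of dense-core vesicle release, was lower, with a log2 difference of -3.10 (limma adjusted p = 0.0476).

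Outside the Hox genes, the largest rise in Hoxb13-low tumors was that of Slc51a, which encodes a subunit of the basolateral bile acid and steroid exporter. Slc51a (chromosome 16 from 32475636 to 32475695) was at 4.47 in control tumor 1 and 3.20 in control tumor 5. In the Hoxb13-high tumors it ran from -6.08 to -3.67, with a median of -5.30, and only 2 of the 7 measured it well above background. The classes did not overlap, and the log2 difference was 8.96 (SE 0.59, limma adjusted p = 6.43e-05), or 6.38 with normexp background correction. The gene of its partner subunit, Slc51b, did not pass at 2.54 (limma adjusted p = 0.249).

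Of 17 measured genes of bile acid and xenobiotic handling, 4 were called higher and 2 lower, with a median of 2.35 against 0.02 over all genes. Without control tumor 1, and likewise without control tumor 5, 2 were called higher and 1 lower. The cytochrome P450 gene Cyp2c65 (NM_028191) was at 4.21 and 3.91 against -4.87 to -1.94, a difference of 7.12 (SE 0.71, limma adjusted p = 0.001). Its neighbours Cyp2c66 and Cyp2c55, which also oxidize fatty acids and drugs, differed by 6.91 (limma adjusted p = 0.000278) and 6.80 (limma adjusted p = 0.0264). These paralogs lie side by side on chromosome 19 and are alike in sequence, so cross-hybridization between their probes was not tested. The glucuronosyltransferase Ugt2b5 was at least 29.4-fold higher, and the glutathione transferase Gstm3 differed by 2.61 (limma adjusted p = 0.0455). Cyp2c66 and Ugt2b5 stood outside the list of 17 and are not among its 4 higher calls. The bile acid receptor Nr1h4 differed by 2.40 (limma adjusted p = 0.0527) and did not pass.

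The other 2 called genes of that list went the opposite way. The apical organic anion exporter Abcc2 (-4.40, limma adjusted p = 0.0148) and the drug-inducible cytochrome Cyp2b10 (-4.74, limma adjusted p = 0.00852) were lower in Hoxb13-low tumors, and each was well above background in 1 of the 2. Gm10768, a non-coding transcript whose probe lies next to that of Abcc2 on chromosome 19 (43915094 to 43915153 against 43912079 to 43912138), was lower too and at least 13.8-fold so. Its call was lost without control tumor 1, without control tumor 5 and with normexp background correction. Abcc2 was not called without control tumor 5 (-3.06, adjusted p = 0.167), and Cyp2b10 was not called without control tumor 1 (-3.85, adjusted p = 0.171). Cyp2c55 was not called without either tumor, where it differed by 6.09 and 7.51. Cyp2c65, Cyp2c66 and Slc51a kept their calls, and Ugt2b5 entered the test through the Hoxb13-low tumors alone.

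Markers of mature absorptive colonocytes pointed the same way in all 22 measured genes, with a median of 1.96. Over all 24470 genes, 12640 had a positive difference. Genes of a list share the same tumors, so such counts of signs, here and below, are not independent results. Only 5 of the 22 were called, all higher, where 1.12% of all genes were called higher. Among them were Slc51a, Cyp2c55, the carbonic anhydrase Car1 and the carnitine transporter Slc22a5. Car1 was at 8.57 and 7.50 against 1.95 to 4.41, a difference of 4.92 (SE 0.63, limma adjusted p = 0.00474). The classes did not overlap for Car1. The chloride exchanger Slc26a3 (3.46, adjusted p = 0.223) and the water channel Aqp8 (3.97, adjusted p = 0.251) did not pass in limma, and their Hoxb13-high tumors were spread from -2.61 to 2.60 and from -1.58 to 5.16. The mean level of the list was 4.55 and 4.06 in Hoxb13-low tumors, 0.60 to 3.13 in Hoxb13-high tumors and 4.51 to 5.64 in normal tissue. In bulk tissue, fewer cells of a type and less RNA per cell cannot be told apart, and the share of normal mucosa in each tumor was not measured. Without control tumor 1, 2 of the list were called and Car1 was not (4.39, adjusted p = 0.111); without control tumor 5, 3 were.

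Lists drawn up for position gave a mixed picture. Of 13 measured genes taken as distal, 3 were lower and 1 higher in Hoxb13-low tumors (median 0.09). The lower ones were Insl5, a hormone of distal enteroendocrine cells (-4.62, limma adjusted p = 0.0286), the tight junction protein Cldn8 (-3.58, limma adjusted p = 0.00605) and the colonic proton pump Atp12a (-3.46, limma adjusted p = 0.0366). The higher one was secretin, Sct, at 4.89 and 4.50 against -0.60 to 0.77, a difference of 4.59 (SE 0.35, limma adjusted p = 0.000157). None of the 3 lower calls held without control tumor 1 (adjusted p = 0.342, 0.111 and 0.375) or control tumor 5 (0.148, 0.0778 and 0.185), whereas that of Sct did. Of 12 measured genes taken as proximal or cecal, 2 were higher (Car1 and Cyp2c55) and 1 was lower (Fxyd4), with a median of 1.52. Among 11 measured genes typical of small intestine, 3 were higher and none lower (median 2.14): the phosphatase Alpi (3.80), the retinol-binding protein Rbp2 (2.83) and the transcription factor Creb3l3 (2.57), and none of these was called without control tumor 1 (adjusted p = 0.368, 0.355 and 0.464) or control tumor 5 (0.212, 0.148 and 0.179). Of 16 intestinal transcription factors only Isx was called (3.29, limma adjusted p = 0.0328, and 0.359 and 0.175 without those tumors), and Cdx2, whose promoter drives the Cre, was at 5.57 and 4.21 against -1.23 to 2.92 (3.44, adjusted p = 0.114).

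Further genes with the largest rises included products of the epithelial surface. H2-T3, a class I-like molecule of intestinal epithelium that binds CD8, was at least 29.1-fold higher. Prap1, a secreted protein of the intestinal lining, was at 2.02 and 1.75 against -4.32 to -3.23, a difference of 5.62 (SE 0.32, limma adjusted p = 2.9e-05). The lipid transporter Abca12 (6.46), the butyrophilin-like gene Btnl1 (5.82), the hexokinase-like gene Hkdc1 (5.75), 1810065E05Rik (5.71) and the metalloprotease-like gene Adam18 (5.51) were called as well. Abca12 and Adam18 were each well above background in 1 of the 7 Hoxb13-high tumors, and with normexp background correction they differed by 3.43 and 2.90. None of these 5 held its call in limma without control tumor 1 (adjusted p = 0.0662, 0.404, 0.135, 0.248 and 0.0812, in that order), and only Abca12 and Hkdc1 did without control tumor 5 (0.0404 and 0.0448).

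**Figure D2:**
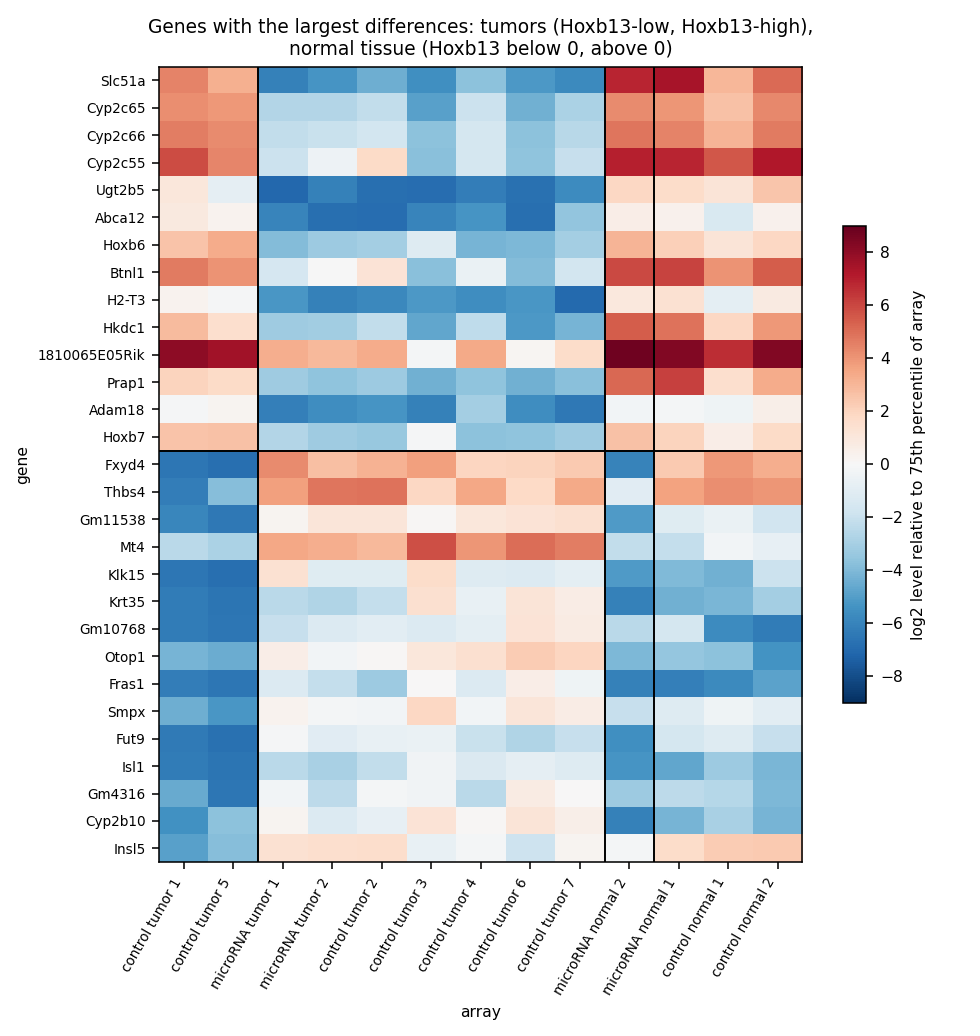
Log2 level relative to the 75th percentile of the array (colour) of 14 of the 15 genes with the largest rise and the 15 with the largest fall (rows) on all 13 arrays (columns), with lines between Hoxb13-low tumors, Hoxb13-high tumors and the normal arrays with Hoxb13 below and above 0. Slc51a was at 3.00 to 7.43 in normal tissue, and Fxyd4 was as low on microRNA normal 2 as in the Hoxb13-low tumors.

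The largest fall was that of Fxyd4, a regulator of the sodium pump in salt-absorbing epithelium. Fxyd4 (NM_033648, chromosome 6 from 117883603 to 117883662) was at background in both Hoxb13-low tumors (-6.48 and -6.78) and ran from 1.92 to 4.26 in the others, with a median of 2.71. It was at least 156-fold lower. Fxyd4 stood in the proximal list used here, a placing that was not tested, since no label gives the position of a sample. Fxyd4 moved against the other called members of that list, and it was low together with Hoxb13 on microRNA normal 2 as well. The matrix glycoprotein Thbs4 was at -6.24 and -3.83 against 1.78 to 4.86, a difference of -8.44 (SE 0.91, limma adjusted p = 0.00153). The metallothionein Mt4 was at -2.45 and -2.83 against 2.89 to 5.81, a difference of -6.81 (SE 0.68, limma adjusted p = 0.001). The classes were separate for all 3 genes. Without control tumor 1 and control tumor 5 respectively, Thbs4 differed by -7.24 and -9.65, and Mt4 by -7.00 and -6.61. Fxyd4 entered the test through the Hoxb13-high tumors alone, so its separation is no test of its difference.

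Gm11538, a predicted transcript whose probe lies close to that of Hoxb13 on chromosome 11 (96066735 to 96066794), was at -5.88 and -6.45 against 0.12 to 1.44. It was at least 39.5-fold lower. It also had the highest correlation with Hoxb13 over the 9 tumors (Pearson r = 0.984), followed by Aldh1l1 (0.969), Foxred2 (0.969), Fam171a1 (0.968) and Tmem132c (0.968). Among the lowest values were those of Hoxc6 (-0.986), the glycolytic enzyme Pfkl (-0.983), the sodium channel Scn1a (-0.980) and the glutathione synthesis enzyme Gclc (-0.980). With the tumors in 2 separate clusters of Hoxb13 level, these coefficients mostly restate the split and are a description of likeness.

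Other large falls were those of the proton channel Otop1 (at least 40.7-fold) and the muscle protein Smpx (at least 29.6-fold). The kallikrein Klk15 (at least 16.7-fold lower), the hair keratin Krt35 (at least 13.5-fold), the basement membrane protein Fras1 (at least 10.0-fold), the fucosyltransferase Fut9 (at least 8.60-fold) and Gm4316 (at least 13.2-fold) were at background in both Hoxb13-low tumors and measured in all 7 others. With normexp background correction none of them was called, and in the order named they differed by -3.05, -2.66, -2.25, -1.96 and -2.07. Of these only Fut9 was called without control tumor 1 (adjusted p = 0.0478), and none was without control tumor 5 (0.0756, 0.245, 0.165, 0.0516 and 0.259, in the order named). Krt36, the neighbour of Krt35 on chromosome 11, was at -0.26 and -0.58 against 2.76 to 4.93, a difference of -4.22 (limma adjusted p = 0.0031). None of 15 measured squamous epithelium markers was called (median -0.22).

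Secretory and endocrine genes divided. Of 16 measured enteroendocrine genes, Sct was higher, and Insl5 and the LIM homeobox factor Isl1 (at least 7.09-fold) were lower, with a median of 1.03. With normexp background correction Insl5 and Isl1 differed by -2.80 and -1.76, and neither was called. Isl1 was not called without control tumor 1 (adjusted p = 0.0681) or control tumor 5 (0.0721), and Chga, the general marker of these cells, differed by 0.85 (adjusted p = 0.595). The antimicrobial lectins of the Reg family gave 3 of 6 higher (median 2.64). Reg3b was at 8.45 and 8.03 against 3.68 to 6.06, a difference of 3.73 (SE 0.52, limma adjusted p = 0.00665), Reg3g differed by 3.50 and Reg3a by 3.38. The Reg calls were lost without control tumor 1 (adjusted p = 0.132, 0.137 and 0.316) and without control tumor 5 (0.0705, 0.0984 and 0.100), and Reg3b varied from 2.02 to 9.34 over the 4 normal arrays. None of 18 goblet cell, 9 Paneth cell or 8 tuft cell genes was called; Muc2 differed by 0.83 (adjusted p = 0.774) and Lyz1 by 0.61 (adjusted p = 0.629).

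Of 27 Wnt target genes, the pathway that Apc restrains, 1 was called lower and none higher. A negative difference was found for 22 of them (median -0.90) and for 11830 of all 24470 genes. The stem cell factor Ascl2 was at 2.70 and 2.36 against 3.35 to 4.42, a difference of -1.49 (SE 0.29, limma adjusted p = 0.0355), and lost its call without either Hoxb13-low tumor (adjusted p = 0.218 and 0.285). Axin2 (-1.51, adjusted p = 0.201), Wif1 (-1.70, adjusted p = 0.137), Myc (-0.65, adjusted p = 0.354) and Lgr5 (0.21, adjusted p = 0.892) did not pass. Wnt10a ran from 1.38 to 5.31 in Hoxb13-high tumors and was at -0.79 and 0.34 in the others (-3.43, adjusted p = 0.129). The 23 measured proliferation genes all had negative differences with none called (median -0.32), and Mki67 differed by -0.24 (adjusted p = 0.665). Apc differed by 0.07 (adjusted p = 0.903), and its probes differed in sign among themselves. Among 18 genes of BMP and activin signalling Id2 was lower (-1.65, limma adjusted p = 0.0424, and 0.320 and 0.266 without control tumor 1 and control tumor 5), with a median of -0.38.

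Few markers of other cell types were called. Over all genes tested the share was 1.85%, so few calls in lists this short do not show a lack of difference. Of 18 T and NK cell markers, 2 were higher, the chemokine Ccl5 (2.15, limma adjusted p = 0.0256) and the granzyme Gzmb (1.54, limma adjusted p = 0.0476), with a median of 0.52 and 16 positive differences. Ccl5 was not called without control tumor 1 (adjusted p = 0.354), nor Gzmb without either Hoxb13-low tumor (0.397 and 0.258), and the T cell receptor subunit Cd3e differed by 0.49 (adjusted p = 0.345). The mean level of this list was -0.65 and -0.88 in Hoxb13-low tumors and -1.78 to -1.27 in the others, with no overlap; its part in the H2-T3 and Btnl1 differences was not tested. The lipid droplet gene Cidec (4.73, limma adjusted p = 0.0136, and 0.214 and 0.0985 without those tumors) was the only call among 8 adipocyte markers, all of which had positive differences (median 0.82). Their mean level was -0.08 and -1.23 in the Hoxb13-low tumors and -2.53 to -1.57 in the others, again with no overlap, and their part in the other differences was not tested. No gene was called among 14 fibroblast, 13 endothelial, 15 smooth muscle, 13 enteric neuron and glia, 8 skeletal muscle, 16 macrophage and dendritic, 11 neutrophil, 9 mast cell or 16 B and plasma cell markers, with list medians between 0.02 and 0.58. Several of these medians turned in sign with 1 tumor. Without control tumor 1 and control tumor 5 respectively they were -0.02 and 1.09 for mast cell, -0.30 and 0.89 for smooth muscle, 0.61 and -0.37 for fibroblast, 0.31 and -0.42 for neutrophil, and 0.47 and -0.09 for macrophage and dendritic cell markers. The mean level of the smooth muscle markers was 2.20 and 0.92 in the Hoxb13-low tumors, within the 0.11 to 2.50 of the others, and that of the fibroblast markers was 2.51 and 3.09 against 1.87 to 2.92. None of 23 inflammation genes, 25 interferon-stimulated genes, 14 matrix metalloproteinases, 14 Wnt ligands or 19 oxidative phosphorylation genes was called. Single calls came from the fetal list (Msln, lower by 2.95 on the log2 scale), the gastric list (Ctse, lower by 1.55), the glycolysis list (Pfkl, higher by 1.59) and the stem cell list (Ascl2). Msln was not called without control tumor 1 (adjusted p = 0.266) or control tumor 5 (0.232), and Ctse and Pfkl were not without control tumor 5 (0.266 and 0.0741).

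**Figure D3:**
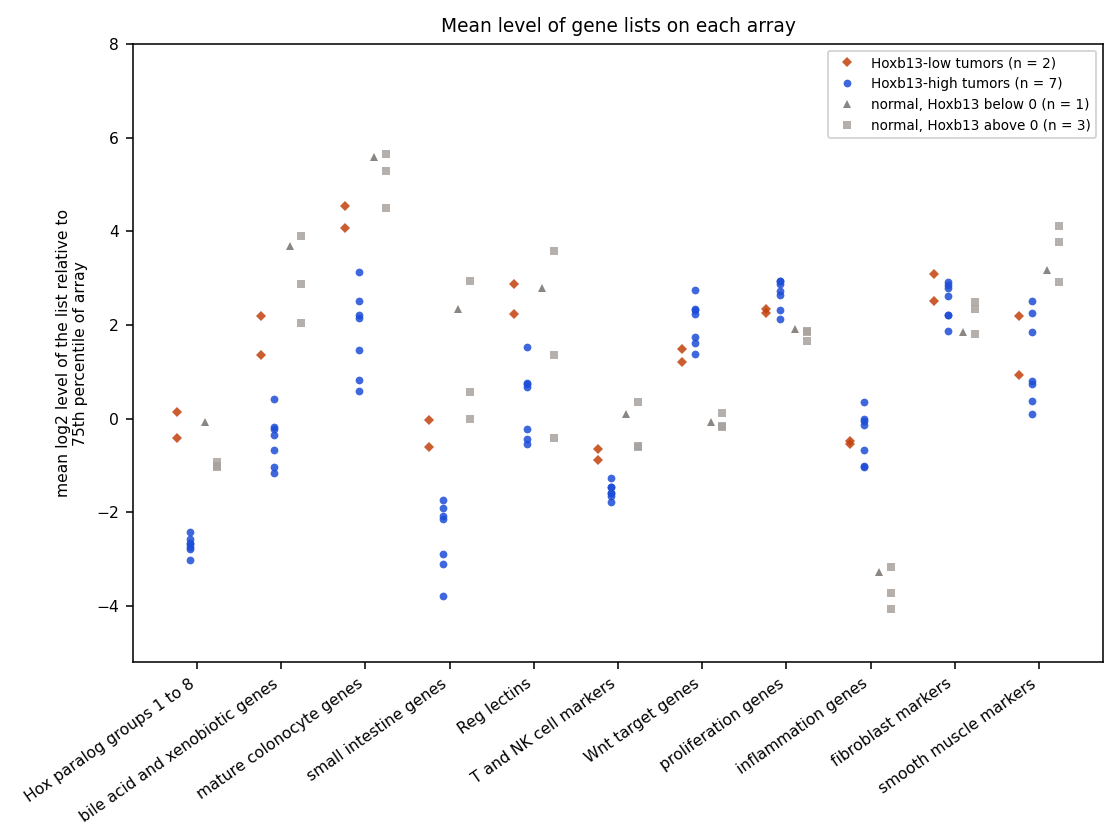
Mean log2 level of 11 gene lists on each array relative to its 75th percentile (vertical axis), for Hoxb13-low tumors (n = 2), Hoxb13-high tumors (n = 7) and normal tissue with Hoxb13 below 0 (n = 1) or above 0 (n = 3). Mature colonocyte genes were at 4.55 and 4.06 in Hoxb13-low tumors against 0.60 to 3.13, whereas smooth muscle markers at 2.20 and 0.92 lay within the range of 0.11 to 2.50.

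The normal arrays, which took no part in choosing the tumors, gave a further view. Hoxb13 was at -0.50 in microRNA normal 2 and at 5.65, 6.35 and 5.90 in microRNA normal 1, control normal 1 and control normal 2. Hoxd13 (-6.02 against -0.69 to 1.54) and Fxyd4 (-6.04 against 2.36 to 3.88) were lower on the same array, and Hoxb4 (1.73 against -0.59 to -0.33) and Hoxb8 (3.27 against -1.03 to 1.40) higher. Hoxa13 was at -0.88 there against 0.11 to 1.07. This is a single array with no replicate, and it was the only normal array on slide 1, so its Hoxb13 level and the slide cannot be told apart.

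Over the 453 called genes, the difference of microRNA normal 2 from the mean of the other 3 normal arrays had the sign of the tumor difference in 237 of 275 genes called higher (86.2%, against 61.5% of all genes with a positive tumor difference). For genes called lower it did in 137 of 178 (77.0% against 59.1%). The median difference in normal tissue was 0.53 and -0.67. On microRNA normal 2, 120 of the 275 lay above all 3 other normal arrays (43.6%, against 39.7% of genes with a positive tumor difference and 32.4% of all genes). Of the 178, 117 lay below them (65.7%, against 40.9% of genes with a negative tumor difference and 30.6% of all). Pearson's r across genes was 0.66 over the 453 called genes and 0.28 over all 24470, where genes are not independent and all share the same arrays. Igf2bp1, an RNA-binding protein gene at least 8.08-fold higher in Hoxb13-low tumors, was at -2.54 on microRNA normal 2 and between -5.99 and -3.16 on the others. Sval1, lower by 4.54 on the log2 scale in Hoxb13-low tumors (limma adjusted p = 0.0173), was at 1.52 there against 6.06 to 6.67. The difference was smaller in normal tissue for Hoxc6, whose tumor difference exceeded the normal one by 4.45. Hoxc6 entered the test through the Hoxb13-low tumors alone, and the normal side rests on 1 array, so no p is given. That test of the difference, which was chosen after seeing the data, called 2 genes (0.00817%), Hoxc6 among them.

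The tumor classes were also set against all 4 normal arrays together. The mean of the 4 normal arrays lay nearer to the Hoxb13-low than to the Hoxb13-high mean for 240 of the 275 (87.3%), against 64.2% of all genes with a positive tumor difference, and for 117 of the 178 called lower (65.7%, against 55.5% of those with a negative one). The Hoxb13-low mean lay inside the range of normal tissue for 158 of the 275, for 6075 of the 12640 genes with a positive difference and for 11299 of all 24470. Among the genes called lower it did for 66 of the 178, a smaller share than the 5224 of 11830 genes with a negative difference. Slc51a, for example, was between 3.00 and 7.43 on the normal arrays, Car1 between 7.29 and 9.13 and Sct between 4.39 and 6.20, all far above the Hoxb13-high tumors. Of these normal arrays 3 had high Hoxb13, so in normal tissue these genes were high beside high Hoxb13.

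**Figure D4:**
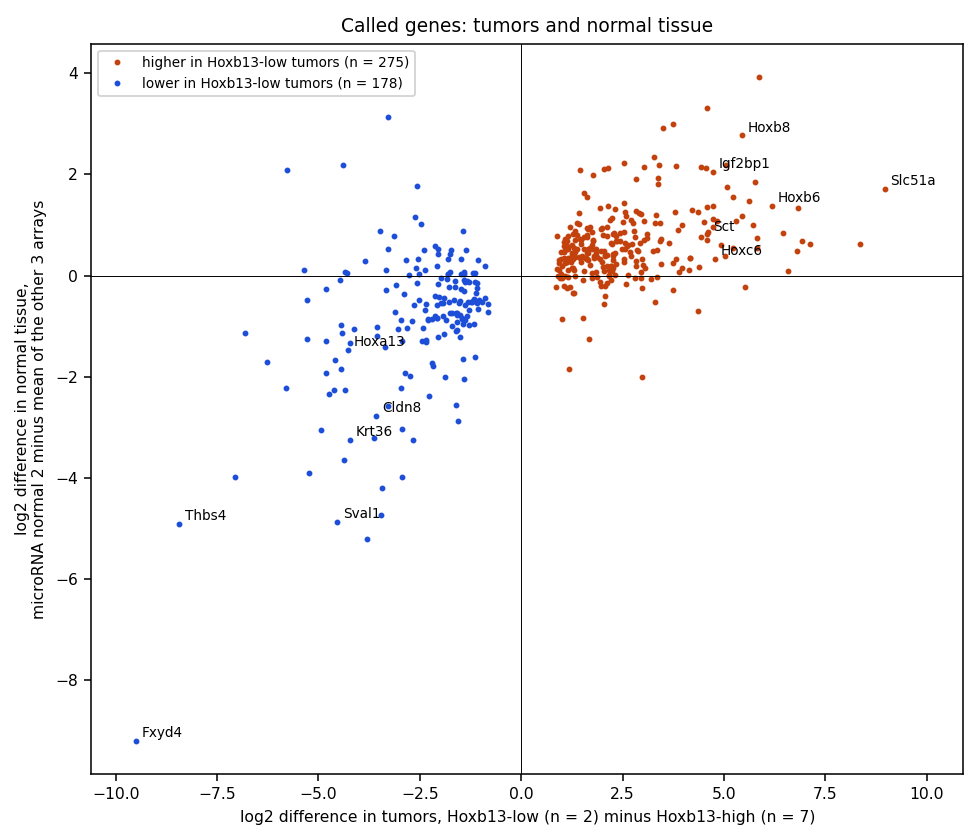
Log2 difference between Hoxb13-low (n = 2) and Hoxb13-high (n = 7) tumors (horizontal axis) against the log2 difference of microRNA normal 2 from the mean of the other 3 normal arrays (vertical axis), for the 275 genes called higher (orange) and the 178 called lower (blue). Most points share a sign on both axes; Fxyd4 is low on both, and Slc51a lies farthest to the right.

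Finally, the split was compared within the numbers that the array names carry. Control tumors 1 and 2 carry 5 and control tumors 4 to 7 carry 6, so each of these 2 numbers holds 1 Hoxb13-low tumor and at least 1 Hoxb13-high tumor. No label says what the number marks. With the number as a random block, the limma fit gave a correlation of 0.443 among tumors that share a number. The p-values above treat the 9 tumors as independent. Fxyd4 differed by -9.59 within number 5 and by -8.87 within number 6, Hoxb6 by 5.66 and 7.09, and Slc51a by 8.83 and 8.07. For Slc26a3 the values were 0.88 and 4.17, and for Aqp8 0.81 and 4.72. The first 3 of these genes thus differed by like amounts within both numbers, and the last 2 did not.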

How the data were processed

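RNA from 13 samples was hybridized to 1-colour Agilent arrays, and per the file headers the authors used Feature Extraction 10.7.3.1; the deposited values are intensity on a linear scale. A table of all arrays, also deposited, repeated these values. Control spots (3671) were left out, spots of a probe were averaged, and log2 processed intensity minus the log2 75th percentile of each array was computed from the deposited intensity. Genes entered the test where the brightest probe exceeded background clearly, by the software's own flag, on 2 or more of 9 tumor arrays (24470 genes, 16303 with a symbol in the RefSeq table of GRCm38.p6).

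The classes were compared over the 9 tumors with limma 3.58.1 (R 4.3.3; lmFit and eBayes, Benjamini-Hochberg adjusted p under 0.05), leaving Hoxb13 out. The members, the 37 gene lists and the tests were chosen with earlier results of these data known. Named genes were Hox groups 9 to 13, the 15 largest changes each way with an official symbol and no overlap, 4 per list by smallest p, the 5 highest and 5 lowest correlations with Hoxb13, and a fixed set; a part of them is described, chosen after their values were seen, as were Hoxb2, Hoxb3, Hoxb5, Hoxb7, Hoxd4, Hoxd8, Hoxa2 to Hoxa7, Krt36, Igf2bp1, Sval1, Cadps, Tmem25, Nek5, Gm7932, Slc51b, Slc22a5, Cd3e and Chga. On simulated data with 200 changed genes, 0% were recovered at a log2 change of 1, 71% at 2 and 95% at 4. Promoter windows came from a RefSeq table, which held none for Hoxb13. Results of some genes are not reported here. Figures used matplotlib 3.10.9.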

Additional observations from a re-analysis of the deposited data

Results flagged for a closer look

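Of 41 genes checked for a single tumor far from the others of its class, 3 had one among the 7 Hoxb13-high tumors, where chance marks about 1 in 20. Control tumor 3 was high for Hoxb6 at -1.19 (nearest tumor -3.08) and for Hoxb7 at -0.11 (nearest -2.66), and it stayed below both Hoxb13-low tumors for each. Control tumor 4 was high for Adam18 at -3.06 (nearest -5.34). The difference between tumor classes was set against that between the normal arrays by an interaction term over all 13 arrays. For Hoxc6, flagged by that term, the tumor difference was larger by 4.45. Hoxc6 was well above background on all 4 normal arrays and on none of the 7 Hoxb13-high tumors. The normal side of that term rests on 1 array with low Hoxb13, and Hoxc6 entered the test through the Hoxb13-low tumors alone, so no p is given.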

How the results depend on the processing

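Every called gene that was still tested kept its sign under the alternatives run, except 1 of 453 with the mean of all probes. With genes required above background on at least 4 tumors, 404 of the 453 were still tested. The classes did not overlap for any called gene, so leaving out tumors could not change a sign. Counts of genes called higher and lower were 173 and 109 with no scaling between arrays, 129 and 99 with the file number as a fixed block, 665 and 482 with it as a random block, and 171 and 118 with Hoxb13 as a continuous covariate. With control tumors only, 171 were called higher and 124 lower. Normexp background correction called 382 and 152, which moved the share of higher calls from 60.7% to 71.5%. The other settings stayed within 1.5 times of both counts; the slide as a block gave 371 and 221 and slide 1 alone 265 and 151. Leaving out each tumor in turn gave 63 to 320 higher and 36 to 208 lower; 95 lower were left without control tumor 7 and 108 without control tumor 4, against 154 and 187 higher. Of 62 named genes called, 32 lost the call without control tumor 1, 32 without control tumor 5, and 25 kept it both times. No paired analysis was possible because the replicate numbers in the labels do not pair Hoxb13-low with Hoxb13-high tumors (they share only 1); the file number, whose meaning no label gives, was the block above. Limits: the lower class holds 2 tumors, both from control mice and both on slide 1. At this number of arrays, no log2 change of 1 was recovered in the simulated data. Of the called genes, 264 of 275 and 173 of 178 differed by at least 1, and a few by less. Probes at background give bounds only. Colon position was not recorded in the labels used here.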
